A study of Chlamydomonas reinhardtii with 12 samples.

Results

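In light-oxic culture, 165 of 17301 gene models of the green alga Chlamydomonas reinhardtii stood clearly apart between 3 strains of the crr1 background and the wild type CC-124. A model was taken when each of those 3 strains was higher, or each was lower, than CC-124 by 2 or more units of log2(RPKM + 1). RPKM is a read count divided by the length of the model and the size of the library. By that rule 65 models were lower in the crr1 background (0.376% of all models) and 100 were higher (0.578%). These light values chose the models, so differences in light are described with no test. The same models were then followed through 0.5 h and 6 h in the dark without oxygen, which are samples the rule did not use.

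The 3 strains of the crr1 background were the mutant crr1, the mutant rescued with the altered form crr1dCys, and the mutant rescued with CRR1 (crr1:CRR1). They were set against CC-124, which carries its own CRR1 gene. Each strain was measured by RNA sequencing once in light-oxic culture, once after 0.5 h and once after 6 h of dark-anoxic incubation, which gave 12 samples. Per the labels' protocols, part of a culture grown in light was sealed in bottles and stirred in darkness, and a part kept under growth conditions served as the light sample, so light and oxygen were withdrawn together.

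CRR1 encodes a DNA-binding regulator through which this alga answers a lack of copper, and it also takes part in the answer to a lack of oxygen. The form crr1dCys is known to lack the cysteine-rich end of the protein. Laboratory strains of this alga also differ from each other in many genes, apart from any mutation under study. All 3 strains that met the rule together include crr1:CRR1, which has the CRR1 gene back. Presence of CRR1 therefore does not divide the groups compared here. Strain background, the crr1 mutation and whatever is particular to the single CC-124 sample of a stage cannot be told apart in this design.

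The 12 samples were spread over 20 columns of 3 series, named TS1, TS2 and TS4 in the table, and what a series stands for is not given in the sources used here. CC-124 occurs in TS2 only, and TS4 holds crr1:CRR1 only. From the steps of low values, 12000774 to 18894276 reads per column were inferred, and these are upper bounds. In a model of 1 kilobase, 1 RPKM would at these depths stand for 12 to 18.9 reads, and for fewer where the true depth is lower. At 6 h, the TS4 column of crr1:CRR1 stood apart from all other columns of the crr1 background, and counts at 6 h are given with and without it, and levels by column. It was assigned to that sample by its name alone, and whether it holds that sample was not tested, so every 6 h average of crr1:CRR1 carries this doubt. It also had the most models at 0, with 1347, where the columns ranged from 959. The identifiers carry no gene names in the table or in the reference annotation, so models are called by identifier, and their functions, the level of CRR1 itself and marker genes of the strains were not analysed here.

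The 65 models that were lower in the crr1 background had low levels there in the median, and 20 of them still reached 1 RPKM or more in all 3 strains. Their median level in light was 0.772 (crr1), 0.732 (crr1dCys) and 1 RPKM (crr1:CRR1), against 13.9 RPKM in CC-124. The median difference was -2.83 log2 units, where the difference is the mean of the 3 strains minus CC-124. The median SD among the 3 strains was 0.12 log2 units (n = 3). All 3 strains were under 1 RPKM for 29 of the 65 models and at 0 for 7.

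The 100 models that were higher in the crr1 background showed the mirror image. Their median level in light was 17.3 (crr1), 21.5 (crr1dCys) and 19 RPKM (crr1:CRR1), against 1.01 RPKM in CC-124. The median difference was 2.98 log2 units and the median SD among the 3 strains was 0.24 log2 units (n = 3). CC-124 was under 1 RPKM for 50 of these models and at 0 for 4, which were Cre06.g263601.t1.2, Cre16.g676250.t1.1, Cre16.g676200.t1.2 and Cre07.g318083.t1.1. In the dark CC-124 had 27.9 RPKM (0.5 h) and 19.3 RPKM (6 h) of the last of these. Over the 14311 models that averaged 1 RPKM or more, called the models tested from here on, the median difference in light was -0.04.

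**Figure D1:**
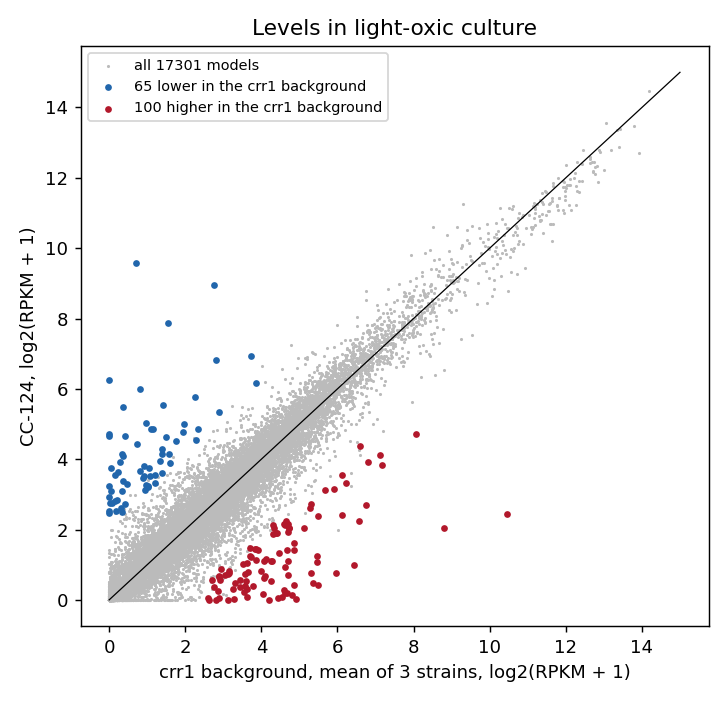
Level of every model in light-oxic culture, with the mean of the 3 strains of the crr1 background on the horizontal axis and CC-124 on the vertical axis, both in log2(RPKM + 1). Grey points are all 17301 models, coloured points the 65 models lower and the 100 models higher in the crr1 background, and the line marks equal levels.

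The gap from CC-124 to the nearest of the 3 strains ran from 2.02 to 8.71 log2 units among the lower models, with a median of 2.65. Among the higher models it ran from 2.00 to 7.29 with a median of 2.55. The models just inside the threshold were Cre06.g305350.t1.2, with a gap of 2.0243, and Cre01.g065750.t1.2, with 2.0049. Just outside lay Cre08.g359300.t1.1 at 1.9891 on the lower side and Cre08.g366700.t1.2 at 1.9996 on the higher side.

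Taken column by column, light values of the crr1 background compared with the single light column of CC-124 as follows. The averages of these columns chose the models, so the counts are largely fixed by that choice. In crr1, 64 of the lower models were 2 log2 units or more below CC-124 in the TS1 column and 63 in the TS2 column. In crr1dCys the counts were 63 in TS1 and 65 in TS2, and in crr1:CRR1 they were 61 in TS1 and 59 in TS4. Of the higher models, 94 to 98 of 100 passed the same size in each of these 6 columns.

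Cre08.g368850.t1.1 had the widest gap of all. In light it stood at 0.827 (crr1), 0.362 (crr1dCys) and 0.739 RPKM (crr1:CRR1), against 761 RPKM in CC-124. After 0.5 h each column of the crr1 background was still under 1 RPKM, against 311 RPKM in CC-124. By 6 h it had 151 and 123 RPKM in crr1, 94.0 and 48.9 RPKM in crr1dCys, and 31.0 RPKM (TS1) and 4.16 RPKM (TS4) in crr1:CRR1, against 632 RPKM in CC-124. The groups did not overlap at any stage, but the difference had narrowed to -3.67 log2 units at 6 h, with a limma adjusted p of 0.0993 (0.016 without the TS4 column).

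Cre02.g103300.t1.2 stayed low in the crr1 background through all 3 stages. Its light levels were 1.81 (crr1), 2.08 (crr1dCys) and 1.94 RPKM (crr1:CRR1), against 234 RPKM in CC-124. At 0.5 h the 3 strains lay between 2.56 and 2.61 RPKM, against 139 RPKM in CC-124. At 6 h crr1 had 5.78 RPKM, crr1dCys 4.61 RPKM and crr1:CRR1 3.63 RPKM in TS1 and 1.15 RPKM in TS4, against 266 RPKM in CC-124. The limma difference was -5.29 (SE 0.39, adjusted p = 0.00125) at 0.5 h and -5.76 (SE 0.39, adjusted p = 0.000494) at 6 h. Every value of the crr1 background was far under every value of CC-124.

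Cre01.g025650.t1.1 behaved in the same way at a lower level. In light it had 0.844 (crr1), 0.705 (crr1dCys) and 0.776 RPKM (crr1:CRR1), against 62.8 RPKM in CC-124. In the dark each sample of the crr1 background lay between 0.708 and 1.25 RPKM, against 47.9 RPKM (0.5 h) and 53.3 RPKM (6 h) in CC-124, so the groups stayed far apart. The limma differences were -4.63 (SE 0.27, adjusted p = 0.000838) at 0.5 h and -4.79 (SE 0.27, adjusted p = 0.000192) at 6 h.

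Cre17.g699000.t1.1 was listed at 0 in crr1, crr1dCys and crr1:CRR1 in light and at 0.5 h, against 24.2 RPKM (light) and 26.3 RPKM (0.5 h) in CC-124. At 6 h it was again at 0 in crr1, in crr1dCys and in the TS1 column of crr1:CRR1, against 46.7 RPKM in CC-124, but the TS4 column of crr1:CRR1 had 8.83 RPKM. It was 1 of 4 lower models at 0 in all other columns of the crr1 background, and 3 of these 4 were above 0 in that TS4 column. Cre24.g769150.t1.2 and Cre05.g235400.t1.1 were lower models with traces of reads only. Cre24.g769150.t1.2 reached 0.122 RPKM at most in any sample of the crr1 background, against 7.53 RPKM (light), 10.8 RPKM (0.5 h) and 14.1 RPKM (6 h) in CC-124. Its limma difference was -3.49 (adjusted p = 0.000838) at 0.5 h and -3.81 (adjusted p = 0.000237) at 6 h. Cre05.g235400.t1.1 reached 0.0236 RPKM in those strains, against 5.78 RPKM (light), 8.18 RPKM (0.5 h) and 15.7 RPKM (6 h) in CC-124. Its limma difference was -3.19 (adjusted p = 0.00108) at 0.5 h and -4.04 (adjusted p = 0.000192) at 6 h. Both models were lower in the 3 strains at all 3 stages, with no overlap.

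Some of the wide gaps rested on a single column. Cre01.g047050.t1.1 was listed at 0 in every column of the crr1 background, against 25 RPKM in light and 0 at both dark stages in CC-124. Cre01.g062150.t1.1 was at 0 in the crr1 background except for 63.4 RPKM (0.5 h) and 131 RPKM (6 h) in the TS4 columns of crr1:CRR1, against 75.1 RPKM in light and 0 at both dark stages in CC-124. In all, 3 lower models were at 0 in CC-124 at both dark stages.

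Among the higher models, Cre04.g223100.t1.1 had the widest gap and Cre02.g077750.t1.1 the next. Cre02.g077750.t1.1 stood at 417 (crr1), 461 (crr1dCys) and 461 RPKM (crr1:CRR1) in light, against 3.11 RPKM in CC-124. At 0.5 h it had 412 (crr1), 362 (crr1dCys) and 423 RPKM (crr1:CRR1), against 1.83 RPKM in CC-124. At 6 h crr1 had 287 RPKM, crr1dCys 209 RPKM and the TS1 column of crr1:CRR1 248 RPKM, against 1.24 RPKM in CC-124. The TS4 column of crr1:CRR1 had 3.55 RPKM at 6 h, close to CC-124 and unlike every other column of the crr1 background. The limma difference was 7.14 (SE 0.97, adjusted p = 0.0131) at 0.5 h and 5.83 (SE 0.97, adjusted p = 0.0194) at 6 h. Without the TS4 column it was 6.79 (SE 0.22, adjusted p = 4.39e-06) at 6 h.

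Cre26.g773300.t1.1 followed the same course. It had 65.4 (crr1), 61.8 (crr1dCys) and 63.6 RPKM (crr1:CRR1) in light, against 0.689 RPKM in CC-124. At 6 h the values were 66.5 RPKM in crr1, 59.8 RPKM in crr1dCys, and 99.1 RPKM (TS1) and 0.913 RPKM (TS4) in crr1:CRR1, against 1.03 RPKM in CC-124. Its limma difference was 5.22 (SE 0.75, adjusted p = 0.0153) at 0.5 h and 4.19 (SE 0.75, adjusted p = 0.0249) at 6 h.

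Cre07.g329050.t1.1 was higher in every column of the crr1 background, the TS4 column at 6 h included. In light it had 25.7 (crr1), 26.9 (crr1dCys) and 28.6 RPKM (crr1:CRR1), against 0.109 RPKM in CC-124. By 6 h it had 41.4 RPKM in crr1, 29.7 RPKM in crr1dCys, and 45.4 RPKM (TS1) and 14.7 RPKM (TS4) in crr1:CRR1, against 0.0634 RPKM in CC-124. The limma difference was 4.90 (SE 0.32, adjusted p = 0.000838) at 0.5 h and 4.94 (SE 0.32, adjusted p = 0.000384) at 6 h.

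Cre16.g676200.t1.2 and Cre16.g676250.t1.1 are next to each other in the order of identifiers, and both were listed at 0 in CC-124 at all 3 stages. Cre16.g676250.t1.1 had 7.64 (crr1), 8.86 (crr1dCys) and 6.67 RPKM (crr1:CRR1) in light, and 4.03 to 5.64 RPKM in the 3 strains at 0.5 h. After 6 h its values were 7.81 RPKM in crr1, 8.79 RPKM in crr1dCys, and 7.85 RPKM (TS1) and 12.2 RPKM (TS4) in crr1:CRR1. Its limma difference was 2.57 (SE 0.27, adjusted p = 0.00469) at 0.5 h and 3.29 (SE 0.27, adjusted p = 0.00137) at 6 h. Cre16.g676200.t1.2 had 5.09 to 5.15 RPKM in the 3 strains in light, 6.73 to 9.56 RPKM at 0.5 h and, in the TS4 column at 6 h, 4.94 RPKM. Its limma difference was 3.18 (adjusted p = 0.00278) at 0.5 h and 3.17 (adjusted p = 0.00158) at 6 h. For this pair the TS4 column lay on the side of the crr1 background.

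**Figure D2:**
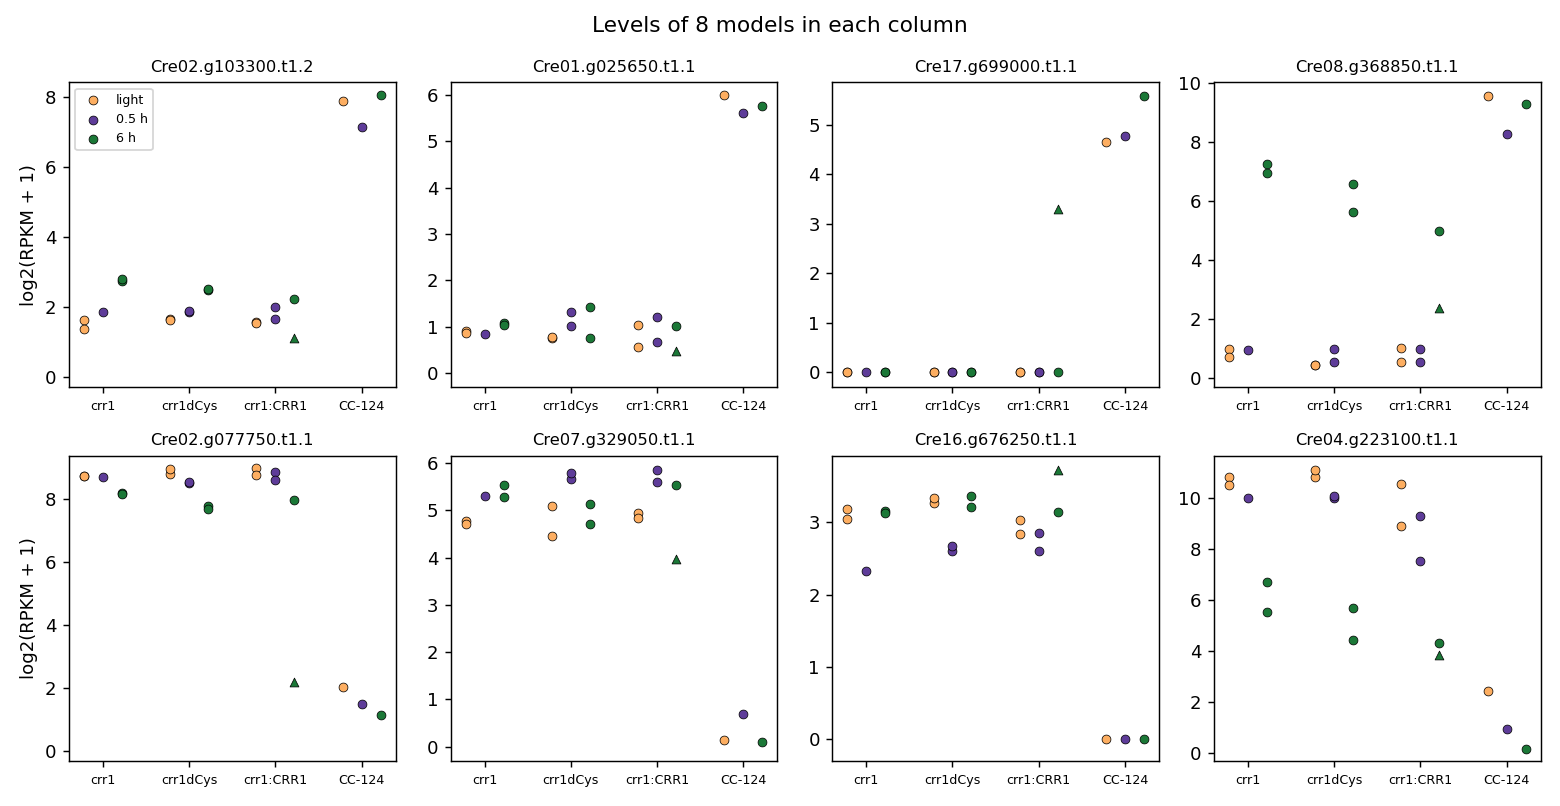
Level in log2(RPKM + 1) of 4 lower and 4 higher models in every column, by strain, with light, 0.5 h and 6 h from left to right within each strain. Points are columns and the triangle is the 6 h TS4 column of crr1:CRR1; in Cre02.g077750.t1.1 the triangle lies at the level of CC-124, and in Cre16.g676250.t1.1 it lies with the crr1 background.

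Silence on one side was then counted over the 3 stages together. For this count, 1 side had to be under 1 RPKM in all its columns and the other at 3 RPKM or more in all of its columns, with the TS4 column at 6 h left out. These limits were chosen after the values had been seen. The comparison thus rested on 16 columns of the crr1 background and 3 of CC-124. The light columns that chose the members are among them, so the share of silent models that are members is largely fixed by that choice. Of the lower models, 11 were silent in the crr1 background, and these were all 11 such models in the table (0.0636% of all models). Of the higher models, 19 were silent in CC-124, of 22 such models in the table (0.127%). The left-out TS4 column lay on the side of CC-124 in 5 of the 11 and in 14 of the 19.

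Next, the light differences were looked up in the dark samples. At 0.5 h, 39 of the 65 lower models (60%) again lay at least 2 log2 units below CC-124 in every one of the 3 strains, against 0.451% of all models. Of the 100 higher models, 59 were again that far above CC-124, against 0.474% of all models. The median difference was -2.39 log2 units for the lower and 2.57 for the higher models, against -0.13 for all models tested. Direction alone held more widely. All 3 strains lay on the same side as in light for 62 of the 65 lower models, where 45.3% of all models tested were lower in all 3. They did so for 98 of the 100 higher models, where 26% of all models tested were higher in all 3.

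At 6 h, 27 of the 65 lower models (41.5%) and 31 of the 100 higher models met the size rule, against 0.514% and 0.329% of all models. Leaving out the TS4 column gave 30 (46.2%) and 56, against 0.439% and 0.659% of all models. The median difference was -2.36 for the lower and 2.12 for the higher models, and -2.24 and 2.43 without that column. Over all models tested it was -0.14. A single column of a single strain thus moved the count of higher models by more than 1.5 times, while it moved that of lower models little.

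With that column, 23 lower and 29 higher models met the size rule at both dark stages, and 22 lower and 39 higher models met it at neither. Without it, 25 lower and 48 higher models met the rule at both, and 21 lower and 33 higher models at neither. Seen from the dark side, 39 of the 78 models that met the rule as lower at 0.5 h were light members (50%). So were 59 of the 82 models higher at 0.5 h (72%). At 6 h without the TS4 column the shares were 30 of 76 lower models (39.5%) and 56 of 114 higher models (49.1%).

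**Figure D3:**
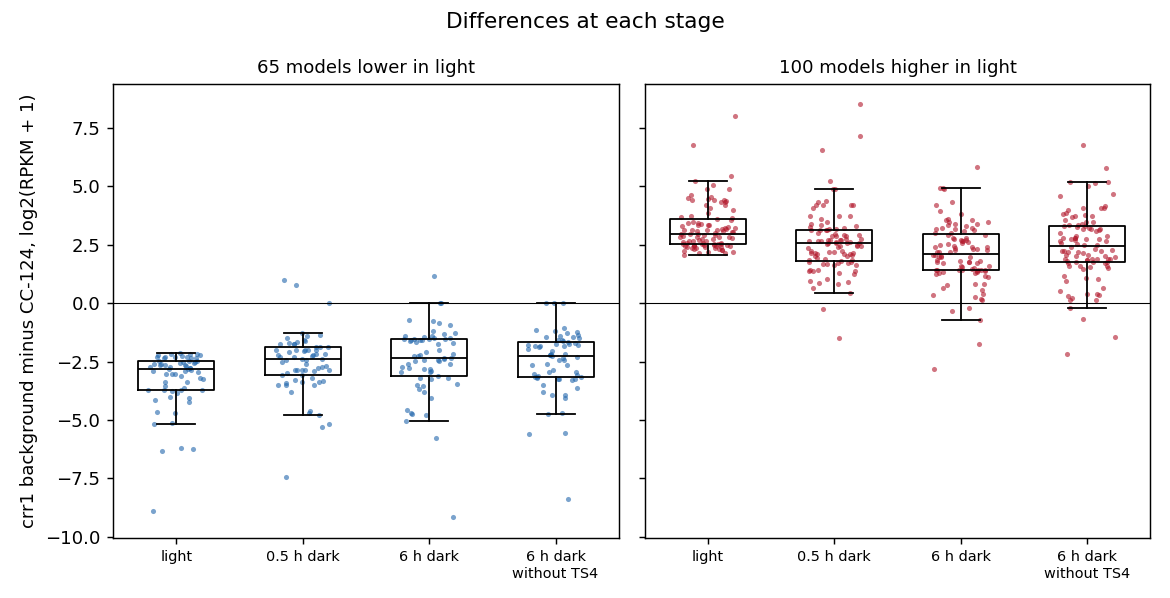
Differences of the crr1 background (mean of 3 strains) minus CC-124 in log2(RPKM + 1) for the 65 lower and the 100 higher models at each stage, with 6 h shown with and without the TS4 column of crr1:CRR1. Boxes span the quartiles with the median as a line; the medians of the lower models run from -2.83 in light to -2.36 at 6 h, and those of the higher models from 2.98 to 2.12.

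The dark samples were also tested with limma, with a mean per stage for the 3 strains and for CC-124. All 165 models were among the 14311 tested, but the filter averages over all 12 samples, so some passed through the light samples that chose them. Over the 8 dark samples alone, 62 of the 65 lower and 99 of the 100 higher models averaged 1 RPKM or more. The lone CC-124 sample of a stage is assumed to vary like the 3 strains, so p-values measure the spread among 3 related strains and not between cultures. A model was called at an adjusted p below 0.05 and a difference of at least 1 log2 unit. At 0.5 h limma called 40 of the 65 lower models as lower, against 1.02% of all models tested, and 44 of the 100 higher models as higher, against 0.943%. At 6 h it called 41 lower models, against 1.8%, and 47 higher models, against 1.7%. With no filter on low values, limma called 30 lower and 18 higher models at 0.5 h, where 123 and 64 of all 17301 models were called. At 6 h it then called 29 and 19, where 198 and 129 of all models were called. The fit treats both dark samples of a strain as independent. A fit with 1 value per strain over both stages was also run, but it holds 1 value of CC-124. Its counts are therefore listed only among the alternatives in the last section, and nothing is concluded from them. The spread is pooled over both dark stages, so the TS4 column at 6 h also widens the errors at 0.5 h. With that column left out, limma called 57 lower (3.52% of all models tested) and 77 higher models (3.03%) at 0.5 h. At 6 h it then called 57 (4.28%) and 78 (4.74%). The counts also depended on which strains entered. With crr1 left out and the TS4 column kept, limma called no model at all at 0.5 h at 2 residual degrees of freedom. There 1524 of all models tested had an unadjusted p below 0.05. Among them were 146 of the 165 members, in the direction seen in light, against 152 with all strains. At 6 h it called 7 lower and 3 higher members, where 11 and 5 of all models tested were called. No fit left out both crr1 and the TS4 column.

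The side that had moved was counted for models that no longer met the size rule, with no test. Of the 35 lower models that did not meet the size rule at 6 h without the TS4 column, the crr1 background was at least 1 log2 unit closer to the light level of CC-124 in 16. CC-124 itself had moved that far toward the crr1 background in 6, and neither had in 13. Among the 44 such higher models the counts were 20 for the crr1 background, 10 for CC-124 and 14 for neither. Medians over all models tested of the change to 6 h were -0.08 in the crr1 background and 0.03 in CC-124.

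Cre13.g599850.t1.2 is an example of a lower model with larger values at 6 h than in light in all 3 strains. It had 1.12 (crr1), 1.15 (crr1dCys) and 1.2 RPKM (crr1:CRR1) in light, against 28.0 RPKM in CC-124. At 6 h it had 16.3 RPKM in crr1, 9.89 RPKM in crr1dCys, and 13.7 RPKM (TS1) and 15.3 RPKM (TS4) in crr1:CRR1, against 65 RPKM in CC-124. CC-124 was also higher at 6 h, and the groups still did not overlap. The limma difference was -3.43 (SE 0.34, adjusted p = 0.0044) at 0.5 h and -2.21 (SE 0.34, adjusted p = 0.0153) at 6 h.

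Cre17.g707750.t1.1 was a higher model with larger values at 6 h than in light in both groups, except in the TS4 column. In light it had 11.6 (crr1), 6.93 (crr1dCys) and 11.7 RPKM (crr1:CRR1), against 0.488 RPKM in CC-124. At 0.5 h it had 61.0 (crr1), 48.9 (crr1dCys) and 58.4 RPKM (crr1:CRR1), against 1.73 RPKM in CC-124. Its values at 6 h were 120 RPKM in crr1, 79.3 RPKM in crr1dCys, and 103 RPKM (TS1) and 3.18 RPKM (TS4) in crr1:CRR1, against 3.19 RPKM in CC-124. The change from light to 6 h was 3.21 log2 units in the crr1 background without the TS4 column and 1.49 in CC-124. Its limma difference was 4.38 (SE 0.79, adjusted p = 0.0368) at 0.5 h and 3.80 (SE 0.79, adjusted p = 0.0393) at 6 h.

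Cre12.g518800.t1.1 also had larger values at 6 h than in light in both groups. It had 12.9 (crr1), 15.5 (crr1dCys) and 8.09 RPKM (crr1:CRR1) in light, against 0.742 RPKM in CC-124. By 6 h it had 87.6 RPKM in crr1, 85.0 RPKM in crr1dCys, and 94.2 RPKM (TS1) and 77.3 RPKM (TS4) in crr1:CRR1, against 20.1 RPKM in CC-124. The limma difference was 3.13 (SE 0.29, adjusted p = 0.00321) at 0.5 h and 2.04 (SE 0.29, adjusted p = 0.0121) at 6 h.

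A set of 12 higher models had much lower values at 6 h than in light in the crr1 background. These are the higher models whose mean over the 3 strains, without the TS4 column at 6 h, was at least 3 log2 units lower at 6 h than in light, a limit chosen after the values had been seen. They are Cre04.g223100.t1.1, Cre06.g309000.t1.1, Cre08.g367400.t1.1, Cre06.g281600.t1.1, Cre08.g367500.t1.1, Cre12.g555700.t1.2, Cre03.g162800.t1.1, Cre02.g097800.t1.2, Cre04.g223300.t1.1, Cre16.g685100.t1.2, Cre03.g151650.t1.1 and Cre05.g248400.t1.1. Their median level in light was 28.3 (crr1), 87.9 (crr1dCys) and 20.3 RPKM (crr1:CRR1), against 0.848 RPKM in CC-124. At 6 h the medians were 0.743 (crr1), 1.3 (crr1dCys) and 1.1 RPKM (crr1:CRR1), against 0.227 RPKM in CC-124. Unlike those in light, these medians were taken from averages on log2(RPKM + 1) and turned back into RPKM, without the TS4 column.

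Much of this change was already present at 0.5 h. The median change from light was -2.33 log2 units in crr1, -3.27 in crr1dCys and -2.18 in crr1:CRR1 at 0.5 h, against -0.28 in CC-124. By 6 h it was -4.13 in crr1, -4.91 in crr1dCys and -2.90 in crr1:CRR1, against -0.62 in CC-124. The 12 models were chosen for their fall to 6 h in the mean of the 3 strains, so its size there is largely fixed by that choice. The changes at 0.5 h start from the same light values. The median of CC-124 in light was 0.848 RPKM, a level from which log2(RPKM + 1) can fall only little. The sizes of change in the 2 groups can therefore not be compared, and a fall in CC-124 may be hidden. Single models changed by -2.28 to 0.14 log2 units in CC-124 at 6 h. Only Cre04.g223100.t1.1 among the 12 still met the size rule at each dark stage. No test was made on these changes, since the light samples chose the models.

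The 12 models also shared an order among the 3 strains in light. By the averages of repeat columns, each was highest in crr1dCys, next in crr1 and lowest in crr1:CRR1. By single columns, crr1dCys was above the other strains in all 12, and every crr1 column was above every crr1:CRR1 column in 9. In the other 3, which were Cre04.g223100.t1.1, Cre06.g281600.t1.1 and Cre12.g555700.t1.2, the TS4 column of crr1:CRR1 was above the TS2 column of crr1. The repeat light columns of crr1:CRR1 were far apart in some models, with 11.4 RPKM (TS1) and 71 RPKM (TS4) for Cre06.g309000.t1.1. They were close in others, with 13.2 RPKM (TS1) and 14.9 RPKM (TS4) for Cre03.g162800.t1.1. For Cre08.g367400.t1.1 the higher column was TS1, with 22.6 RPKM against 18.9 RPKM in TS4. The order by averages was found in 41 of the 100 higher models and in 18.6% of all models tested. More generally, by averages of repeat columns, 9 higher models differed by 2 log2 units or more between crr1dCys and crr1:CRR1 in light. No lower model did so between any pair of the 3 strains. For 29 of the 65 lower models all 3 strains were under 1 RPKM in light, where log2(RPKM + 1) cannot differ by 1 unit. The 2 counts can therefore not be compared.

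Cre04.g223100.t1.1 had the highest level of the 12. In light it stood at 1628 (crr1), 2002 (crr1dCys) and 989 RPKM (crr1:CRR1), against 4.39 RPKM in CC-124. The repeat light columns of crr1:CRR1 differed, with 474 RPKM in TS1 and 1505 RPKM in TS4. At 0.5 h it had 1028 (crr1), 1053 (crr1dCys) and 401 RPKM (crr1:CRR1), against 0.951 RPKM in CC-124. After 6 h its values were 74.6 RPKM in crr1, 35.7 RPKM in crr1dCys, and 18.7 RPKM (TS1) and 13.5 RPKM (TS4) in crr1:CRR1, against 0.109 RPKM in CC-124. The groups never overlapped, and the limma difference was 8.52 (SE 0.82, adjusted p = 0.00386) at 0.5 h and 4.94 (SE 0.82, adjusted p = 0.0183) at 6 h.

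Cre04.g223300.t1.1, near it in the order of identifiers, had 112 (crr1), 252 (crr1dCys) and 52.8 RPKM (crr1:CRR1) in light, against 5.48 RPKM in CC-124. At 0.5 h the 3 strains already lay between 5.08 and 6.85 RPKM, against 2.39 RPKM in CC-124. Cre08.g367400.t1.1 and Cre08.g367500.t1.1 are a second such pair. Cre08.g367400.t1.1 had 29.5 (crr1), 98.9 (crr1dCys) and 20.7 RPKM (crr1:CRR1) in light, against 0.707 RPKM in CC-124, and 3.22 to 7.69 RPKM in the 3 strains at 0.5 h, against 0.596 RPKM in CC-124. Cre08.g367500.t1.1 had 21.4 (crr1), 67.4 (crr1dCys) and 10.8 RPKM (crr1:CRR1) in light, against 0.138 RPKM in CC-124, and 1.85 to 5.46 RPKM at 0.5 h, against 0.348 RPKM in CC-124. In all 3 models the groups were closer at 0.5 h than in light and did not overlap.

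**Figure D4:**
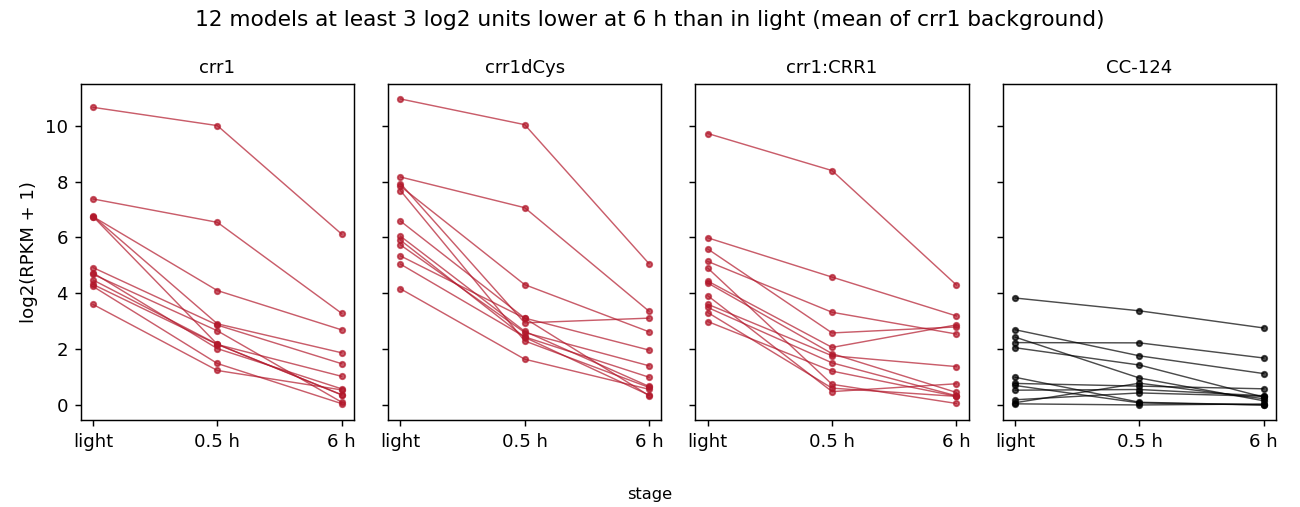
Levels in log2(RPKM + 1) of the 12 higher models that were at least 3 log2 units lower at 6 h than in light in the mean of the crr1 background, at light, 0.5 h and 6 h, in crr1, crr1dCys, crr1:CRR1 and CC-124. Each line is 1 model and the 6 h TS4 column of crr1:CRR1 is left out; medians in light are 28.3, 87.9, 20.3 and 0.848 RPKM in that order of strains.

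At 6 h, the TS4 column of crr1:CRR1 was then set against the other 5 columns of the crr1 background at that stage. Only models that met the size rule at 0.5 h entered, so that the 6 h values played no part in the choice. For the 59 higher models the TS4 column had a median difference from CC-124 of 0.24 log2 units, with quartiles of -0.23 and 1.36. The other 5 columns had medians between 2.95 and 3.32. In the TS4 column 13 of the 59 models were 2 log2 units or more above CC-124, and 35 were within 1 log2 unit of it. In the other columns 45 to 54 of the 59 passed that size.

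For the 39 lower models the TS4 column was less far from the rest. Its median difference was -2.67 log2 units, with quartiles of -4.79 and -1.63, and those of the other columns lay between -2.84 and -2.99. It was 2 log2 units or more below CC-124 in 25 of the 39, against 29 to 31 in the other columns. The column lay with CC-124 for most of the higher models and with the crr1 background for most of the lower ones. What sets this column apart was not tested.

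**Figure D5:**
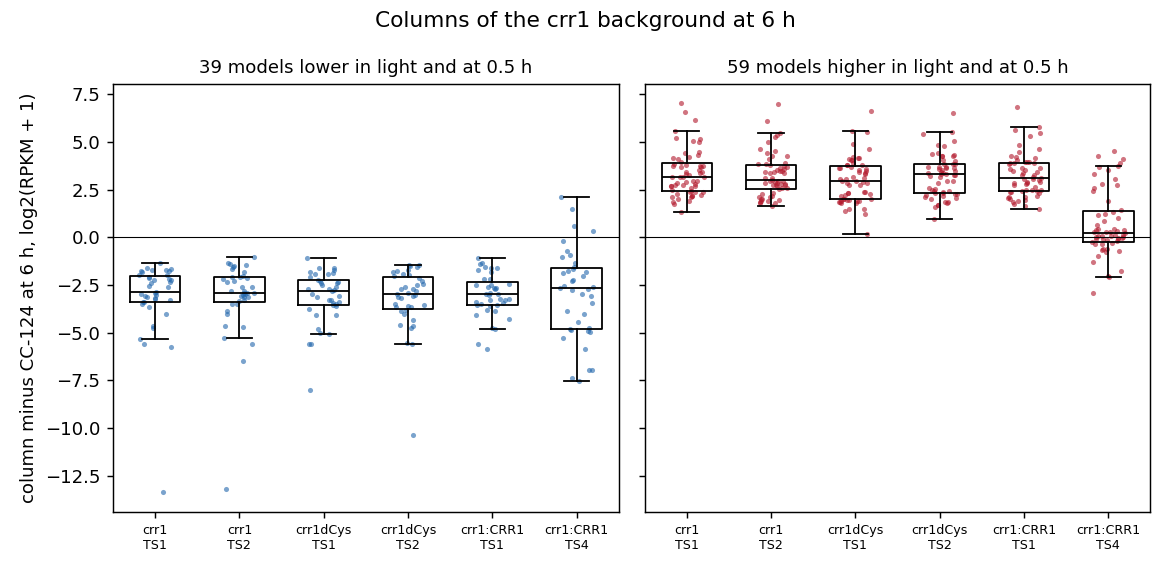
Difference of each column of the crr1 background at 6 h from CC-124 at 6 h, in log2(RPKM + 1), for the 39 lower and 59 higher models that met the size rule in light and at 0.5 h. Boxes span the quartiles; the TS4 column of crr1:CRR1 has a median of 0.24 for the higher models, and the other columns lie between 2.95 and 3.32.

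Position was described from the number that leads each identifier, and numbers up to 17 were read as chromosomes. Numbers above 17 name no chromosome in the reference annotation, and they held 17 of the 165 models (10.3%) and 1211 of all models (7%). Where a locus tag matched the RefSeq annotation of this alga (assembly Chlamydomonas_reinhardtii_v5.5), which held for 43 of the 65 lower, 71 of the 100 higher and 12666 of all models (73.2%), the chromosome number was the same in each case. The part of the tag used for matching holds that number, so this sameness is no separate check of position. Chromosome 17 held 20 of the 165 models (12.1%) and 5.94% of all models. Chromosome 10 held 9 lower models (13.8%) and 2 higher models (2%), with 6.22% of all models. Chromosome 12 held 2 lower (3.08%) and 11 higher models (11%), with 9.66% of all models. Chromosome 11, with 359 models, held none.

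Neighbouring members were counted as a description, with no value for other lists of this size. Within 5 positions of another member of the same direction in the order of identifiers were 14 lower models (21.5%), in 7 runs, and 27 higher models (27%), in 13 runs. A run of 3 higher models was formed by Cre02.g136800.t1.1, Cre02.g136900.t1.2 and Cre02.g136950.t1.2, and all other runs were pairs. Cre17.g698950.t1.1 and Cre17.g699000.t1.1 were adjacent lower models, and Cre17.g723350.t1.1 and Cre17.g723400.t1.1 adjacent higher ones. In that last pair light levels were 24.5 (crr1), 53.4 (crr1dCys) and 18.2 RPKM (crr1:CRR1), against 0.338 RPKM in CC-124, for Cre17.g723350.t1.1. For Cre17.g723400.t1.1 they were 35.3 (crr1), 74.8 (crr1dCys) and 25.9 RPKM (crr1:CRR1), against 0.403 RPKM in CC-124.

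Models directly beside a member, and not members themselves, were counted as a description. Of 164 such neighbours of higher models that averaged 1 RPKM or more, 24 (14.6%) were at least 1 log2 unit higher in light, against 4.74% of all models tested. Of 100 such neighbours of lower models, 8 were at least 1 log2 unit lower (8%), against 3.47%. The median difference was 0.07 for neighbours of higher models, of which 135 lay within 1 log2 unit of CC-124 and 5 were lower by 1 or more. It was -0.13 for neighbours of lower models, of which 88 lay within 1 log2 unit and 4 were higher by 1 or more. Neighbours that overlap or are near-identical may share reads, and their values are uncertain, because no source used here says how such reads were counted.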

How the data were processed

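The authors deposited 1 table of 17301 models in 20 columns, whose unit no header names; the deposited values were read as RPKM from steps in the low values (98.3% of 822 models gave a whole model length within 0.1 base, against a median of 20% over all trial depths). Those steps give upper bounds of the depth. Bowtie is named per the submitters' processing notes, with build, annotation and counting not given in the sources used here. Column names were matched to the labels, and those of crr1 and crr1:CRR1 partly by elimination. Repeat columns (8 of 12 samples) were averaged on log2(RPKM + 1), and printed levels are arithmetic means of columns, so a level and a difference need not convert into each other. The log2 scale with a pseudocount of 1 understates differences of low models.

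Tests used limma 3.58.1 (R 4.3.3, mean-variance trend, 8 dark samples, 4 residual degrees of freedom) with Benjamini-Hochberg adjustment over 14311 models, and the code was tested on simulated data. Nothing says that samples came from separate cultures, so p-values may measure technical spread. Models were named from the 15 with the widest gap in each direction, those at the threshold, those of opposite sign in the dark and those in runs of neighbours. Cre12.g518800.t1.1 and Cre17.g707750.t1.1 come from runs, and other names beyond this rule (the 12 models lower at 6 h than in light, Cre24.g769150.t1.2, Cre05.g235400.t1.1 and Cre07.g318083.t1.1) were chosen after their values were seen. Members and lists were chosen with earlier results of these data known. The planned gene lists matched nothing, since 0 of 17742 reference rows has a symbol other than its locus tag. Alternatives changed the pseudocount, size, scaling, filter, averaging, series and strains.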

Additional observations from a re-analysis of the deposited data

Results flagged for a closer look

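Cre05.g236039.t1.1 was higher in the crr1 background in light and lower at 6 h, and it was flagged because all 3 strains changed side. In light it had 16.9 and 17 RPKM in crr1, 83.1 and 59.5 RPKM in crr1dCys, and 40.0 and 25.8 RPKM in crr1:CRR1, against 3.14 RPKM in CC-124. At 6 h it had 17.8 and 28.7 RPKM in crr1, 175 and 154 RPKM in crr1dCys, and 269 RPKM (TS1) and 18.8 RPKM (TS4) in crr1:CRR1, against 457 RPKM in CC-124. The difference was 3.07 log2 units in light and -2.80 at 6 h, where limma gave an adjusted p of 0.188. Cre03.g168100.t1.1 was flagged for the same reason. Its difference was 2.28 in light and -1.76 at 6 h, with 8.36 and 8.83 RPKM in crr1, 20.5 and 15.6 RPKM in crr1dCys, and 25.2 RPKM (TS1) and 6.08 RPKM (TS4) in crr1:CRR1 at 6 h, against 44.8 RPKM in CC-124. Limma called it at 6 h (adjusted p = 0.0371), and without the TS4 column it did not (adjusted p = 0.0748). In Cre07.g318083.t1.1 the difference was 2.81 in light and -1.51 at 0.5 h, with 1.88 RPKM in crr1, 13.9 and 24.7 RPKM in crr1dCys, and 11.1 and 28.0 RPKM in crr1:CRR1 at 0.5 h, against 27.9 RPKM in CC-124 (limma adjusted p = 0.535). In Cre02.g079340.t1.1 it was 2.38 in light and -0.72 at 6 h, with 6.78 and 6.98 RPKM in crr1, 3.81 and 14.8 RPKM in crr1dCys, and 21.1 RPKM (TS1) and 1.52 RPKM (TS4) in crr1:CRR1 at 6 h, against 12.2 RPKM in CC-124 (limma adjusted p = 0.59). For all 4 models the change of side between stages was not tested. In Cre02.g079340.t1.1 at 6 h single columns lay on both sides of CC-124. They did so too in Cre07.g318083.t1.1 at 0.5 h, where the TS4 column of crr1:CRR1 had 28.0 RPKM, against 27.9 RPKM in CC-124.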

How the results depend on the processing

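Of 132 counts under alternatives, 80 stayed within 1.5 times the count given above. With the models chosen anew under each setting, counts follow in the order lower and higher in light, lower and higher at 0.5 h, lower and higher at 6 h. They were 175, 253, 103, 144, 84 and 84 with a pseudocount of 0.1, and 19, 27, 10, 11, 10 and 6 with a pseudocount of 5. A size of 1 log2 unit gave 362, 478, 209, 271, 166 and 172, and a size of 3 gave 24, 32, 12, 16, 10 and 6. With CC-124 set against the mean of the 3 strains, the higher models numbered 160 in light, 99 at 0.5 h and 69 at 6 h, and the lower 59 at 0.5 h and 50 at 6 h. TS2 columns alone, without crr1:CRR1 and, at 0.5 h, without crr1, gave 91 higher models at 0.5 h and 57 at 6 h. At 6 h there were 47 higher models with the log2 of the mean RPKM, 56 without the TS4 column, and 32 to 64 with 1 strain left out. Limma called 77 higher models at 0.5 h and 78 at 6 h without the TS4 column, 84 with 1 difference over both dark stages or with 1 value per strain, 85 with 1 value per strain and without the TS4 column, and 18 and 19 with no filter. With 1 strain left out, limma called 0 to 56 lower and 0 to 81 higher models at 0.5 h, and 7 to 54 and 3 to 77 at 6 h. Over all models tested those fits called 0 to 330 lower and 0 to 328 higher models at 0.5 h. At 6 h they called 11 to 459 lower and 5 to 512 higher models of all those tested. The cause was not tested. Of 2212 values of 79 named models, 1658 moved by less than the spread between strains. Median of ratios scaling shifted the median difference of all models tested from -0.13 to 0.00 at 0.5 h and from -0.14 to -0.02 at 6 h. Under quantile normalization 59% of limma calls at 6 h were higher, against 48.6% as deposited, and 58% against 48% at 0.5 h. A filter on the 8 dark samples alone gave 39 lower and 44 higher models at 0.5 h and 40 and 47 at 6 h. Of the 14339 models it kept, limma called 148 lower and 135 higher at 0.5 h and 264 and 244 at 6 h. This filter and the values per strain were added after seeing the data. The fits with 1 value per strain hold 1 value of CC-124, so nothing is concluded from their counts. No paired analysis was possible because the labels give no replicate numbers that link a crr1-background sample to a CC-124 sample.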
